A study of Mus musculus with 50 samples.

Results

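Hmcn1, Nxf7, Maml2, Gm13119 and Gm10696 stood out between mouse embryonic stem cells (ESCs) without EZH2 and wild-type ESCs, and were followed through the other lines of the study. They are 5 of the 18055 genes in the table of normalized counts. They were selected on their difference in normalized counts between Ezh2 KO and wild-type (WT) libraries, so that difference is given as a description and without a test. By the size of the fitted difference they were not simply the largest 5. Among the 13 genes called higher in Ezh2 KO, Hmcn1 and Nxf7 took places 2 and 3, and among the 43 called lower, Gm13119, Gm10696 and Maml2 took places 2, 3 and 8. Over all genes tested, called or not, Hmcn1 and Nxf7 took places 3 and 21 of the higher genes. Gm13119, Gm10696 and Maml2 took places 3, 4 and 9 of the lower ones. Ezh2 itself led the lower genes.

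The lines were made with CRISPR/Cas9 in E14 ESCs, a male mouse line kept undifferentiated in culture. WT cells carried both enzymes. Ezh2 KO cells carried a large deletion of Ezh2 and kept Ezh1. Ezh1/2 dKO cells lacked both genes. Ezh2 Y726D cells carried an EZH2 with a changed catalytic residue and were made in Ezh1 KO cells, so that they too lacked EZH1. Ezh2 R685C cells, also made in Ezh1 KO cells, and Ezh1/2 dKO cells given back an HA-tagged EZH1 are described by chromatin data alone. RNA was measured in 2 SMART-seq libraries per line (8 in all), chromatin in 1 library per line and target. The labels do not say that the 2 libraries of a line came from separate cultures, so p-values measure the spread between these libraries only, and the number of clones behind the libraries of a line is not given in the sources used here.

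EZH1 and EZH2 are the alternative catalytic subunits of Polycomb repressive complex 2 (PRC2), which methylates lysine 27 of histone H3. SUZ12 is a core subunit of the complex. H3K27me3, its final product, marks repressed promoters that are often rich in CpG dinucleotides, H3K27me2 and H3K27me1 cover much wider stretches of the genome, and H3K27ac is a mark of active promoters and enhancers on the same residue. The 5 genes come from different families. Hmcn1 encodes hemicentin 1, a very large extracellular matrix protein of the fibulin family. Nxf7 is an X-linked relative of the mRNA export receptor Nxf1. Maml2 encodes a mastermind-like coactivator of Notch signaling. Gm13119, named Pramel31 in RefSeq, belongs to the PRAME-like genes, a family of leucine-rich repeat proteins active in germ cells and early embryos. Gm10696, named Spopfm2 in RefSeq, belongs to the TDPOZ and SPOP-like genes, which encode MATH and BTB domain proteins and are also active in early embryos.

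The promoters of the 5 genes are shown because the chromatin data are read around them. Each sequence runs 5′ to 3′ on the strand of the gene from 250 bases before to 50 bases after the RefSeq start (promoter table of build GRCm38.p6, positions from an exact and single match to mm9, the build of the files), and capitals mark CpG dinucleotides.
Hmcn1, chr1:152840516-152840815, minus strand: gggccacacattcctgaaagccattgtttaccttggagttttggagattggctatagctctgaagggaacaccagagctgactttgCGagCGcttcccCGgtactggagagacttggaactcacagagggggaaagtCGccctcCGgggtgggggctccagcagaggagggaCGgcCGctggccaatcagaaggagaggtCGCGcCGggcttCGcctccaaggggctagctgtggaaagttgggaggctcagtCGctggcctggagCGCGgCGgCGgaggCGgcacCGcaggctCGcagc
Nxf7, chrX:132133267-132133566, minus strand: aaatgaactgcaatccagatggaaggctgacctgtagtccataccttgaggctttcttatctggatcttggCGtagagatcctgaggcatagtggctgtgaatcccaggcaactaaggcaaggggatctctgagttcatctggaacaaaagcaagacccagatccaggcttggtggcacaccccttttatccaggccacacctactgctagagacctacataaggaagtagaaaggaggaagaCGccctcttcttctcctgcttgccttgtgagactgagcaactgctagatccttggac
Maml2, internal start, chr9:13466654-13466953, plus strand: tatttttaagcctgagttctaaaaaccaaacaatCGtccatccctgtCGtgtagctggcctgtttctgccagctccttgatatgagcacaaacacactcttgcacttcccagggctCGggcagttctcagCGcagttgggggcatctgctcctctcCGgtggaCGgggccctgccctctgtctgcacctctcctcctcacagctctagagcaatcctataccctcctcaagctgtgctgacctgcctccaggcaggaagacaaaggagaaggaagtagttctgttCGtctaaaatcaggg
Gm13119, chr4:143947617-143947916, plus strand: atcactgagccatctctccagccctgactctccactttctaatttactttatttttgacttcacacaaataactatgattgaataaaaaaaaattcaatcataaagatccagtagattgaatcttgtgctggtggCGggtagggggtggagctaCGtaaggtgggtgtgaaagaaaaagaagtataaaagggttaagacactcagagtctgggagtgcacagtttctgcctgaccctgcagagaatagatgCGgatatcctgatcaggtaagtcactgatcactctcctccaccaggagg
Gm10696, chr3:93982066-93982365, minus strand: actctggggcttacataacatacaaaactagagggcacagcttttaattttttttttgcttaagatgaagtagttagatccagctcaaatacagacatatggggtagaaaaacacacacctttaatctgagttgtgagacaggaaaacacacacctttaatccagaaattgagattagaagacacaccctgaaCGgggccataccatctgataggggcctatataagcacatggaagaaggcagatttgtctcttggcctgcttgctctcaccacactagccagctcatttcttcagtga

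The promoter of Hmcn1 held 19 CpG dinucleotides, a number reached by 28.1% of the 32851 RefSeq promoters of the same length, whose median was 7. The internal promoter of Maml2 held 7. The remaining promoters were poor in CpG, with 3 in Gm13119, 2 in Nxf7 and 1 in Gm10696, and 94.6% of all promoters held at least 1. TATAAA, searched on both strands, was present in 13.6% of all promoters and, of those printed, in that of Gm13119. The RefSeq table also holds a promoter for the first start of Maml2. It had no match on chromosome 9 of mm9 and is not used here.

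In the GENCODE annotation of mm9, all 5 are protein-coding. Hmcn1 spans chr1:152409654-152840565 on the minus strand, 430912 bases. Nxf7 spans chrX:132114094-132133316 on the minus strand, with Prame 14225 bases beyond its start side as the nearest gene of the table. Maml2 spans chr9:13424434-13513832 on the plus strand, with 3 annotated starts, of which the printed one lies inside the gene. Gm13119 spans chr4:143947845-143954322 on the plus strand within a run of PRAME-like genes, Gm13128 lying 24477 bases below it and Gm13125 8341 bases above it. Gm10696 spans chr3:93978334-93982115 on the minus strand, and its nearest neighbor on the side of lower coordinates was another TDPOZ gene, Tdpoz3, at 347295 bases.

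Copies of the last genes limit how well reads can be placed. Of the stretches of 50 bases within 5 kb of the 5′ start, 99.8% occurred once in mm9 for Hmcn1, 96.0% for Maml2 and 90.7% for Nxf7. For Gm13119 it was 71.2%, and for Gm10696 22.6%. Along the longest coding transcript, stretches found once made up 52.8% for Gm13119 and 12.6% for Gm10696. Levels of both genes, and of the PRAME, TDPOZ and Zscan4 relatives given later, are therefore uncertain where reads could belong to a copy.

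The libraries held 3604123 to 5181553 reads on genes. The labels were checked on the targeted genes. Ezh2 had 1.05 and 0.97 normalized counts in Ezh2 KO and 0.82 and 1.78 in Ezh1/2 dKO, against 598 and 546 in WT and 422 and 613 in Ezh2 Y726D. Ezh1 had 372 and 378 in Ezh2 KO, 227 and 377 in WT, and between 14 and 24.1 in the lines that lack EZH1. All 12 pluripotency markers were detected in every library and summed to 14452 to 17650 normalized counts. One of them, Dppa3, was called higher in Ezh1/2 dKO than in WT (1.32 ± 0.33, limma adjusted p = 0.0775) and lower in Ezh2 Y726D than in WT (-2.66 ± 0.33, limma adjusted p = 0.0113) and than in Ezh1/2 dKO (-3.98 ± 0.33, limma adjusted p = 0.00150). The 9 primitive endoderm markers summed to 29.3 to 49.1 in WT, 36.6 to 44.5 in Ezh2 KO, 203 to 208 in Ezh1/2 dKO and 99.6 to 117 in Ezh2 Y726D. The 8 trophectoderm markers summed to 383 to 487, 439 to 581, 721 to 961 and 718 to 1289 in the same order of lines. Of the fibroblast list, 7 genes were in the table, Vim carried most of its sum (589 to 1788 over the 8 libraries), and Lum and Dcn were at 0 in both WT libraries and had at most 4.95 in any other. Thy1, of the same list, rose in Ezh1/2 dKO (3.53 ± 0.44, limma adjusted p = 0.00942) and Ezh2 Y726D (3.30 ± 0.44, limma adjusted p = 0.0130) against WT. Vim, the other gene of the list that was tested, had negative differences from WT that did not pass. They were -0.80 ± 0.45 in Ezh1/2 dKO (limma adjusted p = 0.376) and -0.63 ± 0.45 in Ezh2 Y726D (limma adjusted p = 0.614). Col1a1 had at most 1.94 in the WT and Ezh2 KO libraries and 1.78 to 11.5 in the other 4, and Twist1 at most 1.33 and 1.78 to 14.8. The part of other cell types in the values of the 5 genes was not tested. These are bulk samples, in which fewer cells of a type and less RNA per cell cannot be told apart.

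Hmcn1 was high in both lines without EZH2 and at the WT level where the inactive EZH2 was present. A normalized count here is a read count divided by the size factor of its library. Hmcn1 had 14.7 and 10.6 normalized counts in WT, 109 and 186 in Ezh2 KO, 209 and 159 in Ezh1/2 dKO and 15.2 and 11.2 in Ezh2 Y726D. The libraries of Ezh2 KO and Ezh1/2 dKO overlapped each other and lay above all of those of WT and Ezh2 Y726D, which also overlapped. The pooled ratio of Ezh2 KO to WT was 12.1 (95% counting interval 7.84 to 19.6, exact, from 296 and 22 reads). On the log2(normalized count + 1) scale the difference was 3.41 ± 0.39 (SE, limma, 2 libraries against 2) for Ezh2 KO minus WT.

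Hmcn1 rose in Ezh1/2 dKO against WT by 3.76 ± 0.39 (limma adjusted p = 0.00585, higher in 2 of 2 libraries than in either WT library). The WT libraries of that comparison are those used in the choice. For Ezh2 Y726D minus WT the difference was 0.06 ± 0.39 (limma adjusted p = 0.972), with an interval of -0.81 to 0.93. Ezh2 Y726D against Ezh1/2 dKO compares no library of the choice, and there Hmcn1 was lower by a log2 difference of -3.71 ± 0.39 (limma adjusted p = 0.00487). The spread in that fit came from all 8 libraries, those of the choice included, and in a fit of the 4 compared the limma adjusted p was 0.0428. Without Ezh1/2 dKO replicate 1 or 2, which leaves a lone library assumed to vary like the others, the limma adjusted p for Hmcn1 in Ezh1/2 dKO against WT was 0.102 and 0.115.

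Nxf7 was above WT in all mutants and in steps. It had 6.67 and 7.70 normalized counts in WT, 23.2 and 14.5 in Ezh2 Y726D, 38.7 and 46.4 in Ezh2 KO and 167 and 255 in Ezh1/2 dKO. No neighbors in this order overlapped in their 2 libraries. The steps were counted on few reads at the low end, 13 reads over both WT libraries and 39 over both of Ezh2 Y726D, for a ratio of Ezh2 Y726D to WT of 2.66 (95% counting interval 1.39 to 5.43). Ezh2 KO stood 5.88 times above WT (3.26 to 11.5).

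Nxf7 rose in Ezh1/2 dKO against WT by a log2 difference of 4.67 ± 0.40 (limma adjusted p = 0.00269), again against the WT libraries of the choice. It was lower in Ezh2 Y726D than in Ezh1/2 dKO by -3.42 ± 0.40 (limma adjusted p = 0.00776, and 0.0546 in a fit of those 4 libraries). The difference of 1.25 ± 0.40 between Ezh2 Y726D and WT did not pass (limma adjusted p = 0.183). Ezh2 KO minus Ezh1/2 dKO was -2.26 ± 0.40, a description since Ezh2 KO chose the gene. Without Ezh1/2 dKO replicate 2 the limma adjusted p for Nxf7 was 0.104 against WT and 0.171 for Ezh2 Y726D against Ezh1/2 dKO.

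Maml2 was low in every mutant. It had 153 and 131 normalized counts in WT, 4.18 and 2.90 in Ezh2 KO, 19.0 and 9.77 in Ezh1/2 dKO and 8.02 and 2.24 in Ezh2 Y726D. Every mutant library lay below both WT libraries. Among the mutants, Ezh1/2 dKO was above Ezh2 KO and Ezh2 Y726D, which overlapped. WT to Ezh2 KO was a ratio of 39.9 (95% counting interval 19.1 to 100.3), the Ezh2 KO libraries holding 7 reads together.

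Maml2 fell in Ezh1/2 dKO by a log2 difference of -3.28 ± 0.60 (limma adjusted p = 0.0308) and in Ezh2 Y726D by -4.72 ± 0.60 (limma adjusted p = 0.0113), beside -4.99 ± 0.60 in Ezh2 KO. Both comparisons share the WT libraries that chose the gene. Ezh2 Y726D minus Ezh1/2 dKO, at -1.44 ± 0.60, did not pass (limma adjusted p = 0.352), with an interval of -2.79 to -0.09. Without Ezh1/2 dKO replicate 1 or 2 the limma adjusted p for Maml2 in Ezh1/2 dKO against WT was 0.160 and 0.288.

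Gm13119 and Gm10696 moved alike, near absent in Ezh2 KO and present in Ezh1/2 dKO. Gm13119 had 101 and 63.5 normalized counts in WT, 2.09 and 0 in Ezh2 KO, 149 and 187 in Ezh1/2 dKO and 9.81 and 13.4 in Ezh2 Y726D. The 4 lines did not overlap, with the order Ezh1/2 dKO, WT, Ezh2 Y726D, Ezh2 KO. The Ezh2 KO libraries held 2 reads together, and the ratio of WT to Ezh2 KO was 79.0 (95% counting interval 21.5 to 659). Gm10696 had 125 and 28.9 normalized counts in WT, 0 and 0.97 in Ezh2 KO, 67.6 and 144 in Ezh1/2 dKO and 13.4 and 33.6 in Ezh2 Y726D. Here WT overlapped both Ezh1/2 dKO and Ezh2 Y726D, and Ezh2 KO lay below all other libraries with 1 read in all, at a ratio of WT to Ezh2 KO of 138 (24.3 to 5493).

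Gm13119 was lower in Ezh2 Y726D than in Ezh1/2 dKO by a log2 difference of -3.75 ± 0.57 (limma adjusted p = 0.0215, and 0.0428 in a fit of those 4 libraries). The WT libraries in the next comparisons are those of the choice. It fell in Ezh2 Y726D against WT by -2.70 ± 0.57 (limma adjusted p = 0.0552), and the difference of 1.05 ± 0.57 between Ezh1/2 dKO and WT did not pass (limma adjusted p = 0.354). None of the tested differences of Gm10696 passed. They were 0.70 ± 0.77 for Ezh1/2 dKO minus WT (limma adjusted p = 0.661), -1.46 ± 0.77 for Ezh2 Y726D minus WT (limma adjusted p = 0.442) and -2.16 ± 0.77 for Ezh2 Y726D minus Ezh1/2 dKO (limma adjusted p = 0.268). The last of these passed with DESeq2 on the recovered reads (-2.19, DESeq2 adjusted p = 0.0619). The WT libraries of Gm10696 differed by more than any other pair of the gene's lines on the count scale, and its SE was the largest of the 5 genes. As descriptions, Ezh2 KO minus Ezh1/2 dKO was -6.58 ± 0.57 for Gm13119 and -6.15 ± 0.77 for Gm10696, and Ezh2 KO minus Ezh2 Y726D was -2.83 ± 0.57 and -3.99 ± 0.77. The call of Gm13119 in Ezh2 Y726D against WT was the least firm of those given, since the limma adjusted p was 0.174 without WT replicate 1, 0.131 without either Ezh1/2 dKO replicate, 0.104 and 0.115 without Ezh2 Y726D replicates 1 and 2, 0.107 with a pseudocount of 0.5 and 0.133 in a fit without the lines not compared. The call against Ezh1/2 dKO went to 0.177 and 0.305 without Ezh1/2 dKO replicates 1 and 2.

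**Figure D1:**
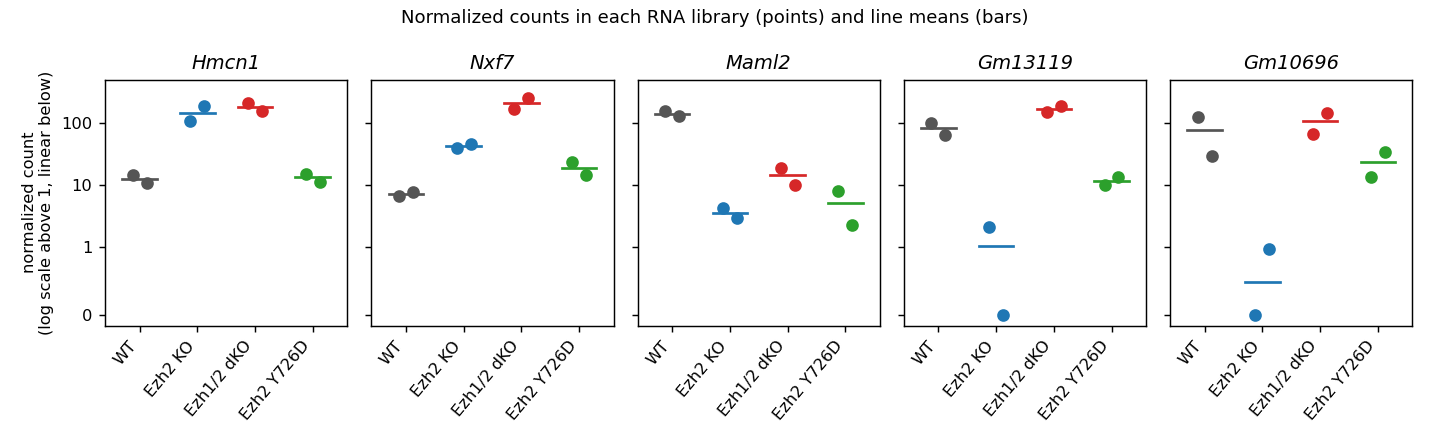
Normalized counts of the 5 genes (vertical axis, logarithmic above 1 and linear below) in each of the 8 RNA libraries, as points, with the mean of each line as a bar. Hmcn1 is high in Ezh2 KO and Ezh1/2 dKO, Nxf7 climbs to 167 and 255 in Ezh1/2 dKO, Maml2 is low in all mutants, and Gm13119 and Gm10696 are near 0 in Ezh2 KO alone.

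Read over the whole table, the call rule (limma adjusted p under 0.1 and an absolute log2 difference of at least 1, 13872 genes tested) called 0.404% of genes in Ezh2 KO against WT, the contrast of the choice, 4.02% in Ezh1/2 dKO against WT, 2.72% in Ezh2 Y726D against WT and 1.68% in Ezh2 Y726D against Ezh1/2 dKO. All 5 genes passed the filter on low values. In Ezh1/2 dKO 3 of the 5 were called, Hmcn1 and Nxf7 higher and Maml2 lower. Against WT, Ezh2 Y726D had 2 of them called, Maml2 and Gm13119, both lower. Both comparisons share the WT libraries of the choice, so these counts beside the shares of all genes are not independent of it. Between Ezh2 Y726D and Ezh1/2 dKO, whose means use no library of the choice, 3 were called, in the fit of all 8 libraries and in that of the 4 compared, Hmcn1, Nxf7 and Gm13119, all lower in Ezh2 Y726D than in Ezh1/2 dKO, where 207 of the 233 genes called over the table were also lower. Maml2 was the only one of the 5 called in the same direction in Ezh1/2 dKO and Ezh2 Y726D against WT. With 1 library of Ezh1/2 dKO left out, 9 or 3 genes of the table were called in Ezh1/2 dKO against WT, in place of 557, so the losses of single calls in those fits sit within a loss across the table.

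**Figure D2:**
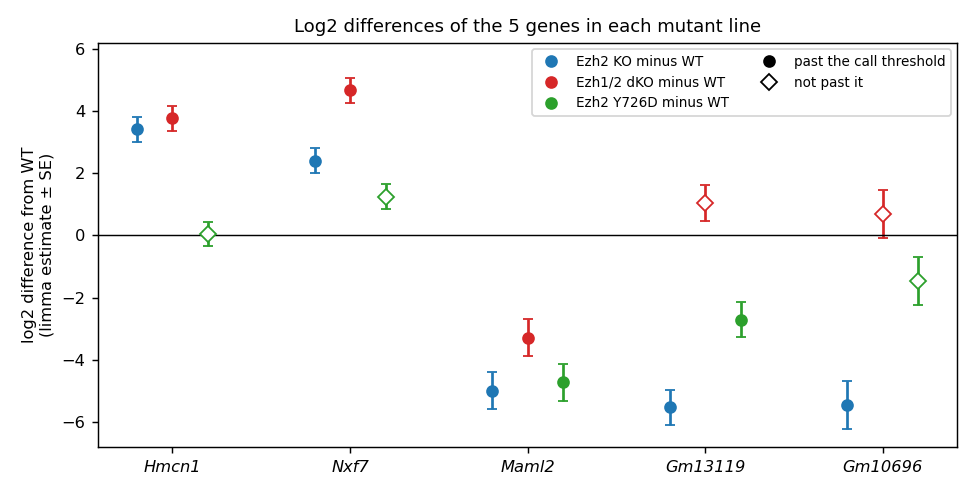
Limma log2 differences from WT (vertical axis) with SE bars for the 5 genes in the 3 mutants with RNA, 2 libraries per line. Filled circles passed the call rule and open diamonds did not; the Ezh2 KO values chose the genes and are descriptive, Hmcn1 in Ezh2 Y726D sits at 0.06, and Gm13119 and Gm10696 lie above 0 in Ezh1/2 dKO without passing.

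The 3 genes of the table most like each of the 5, by Pearson r of log2(normalized count + 1) over the 8 libraries, were found as a description. The libraries share lines, so that r mostly follows 4 line levels. For Hmcn1 they were Tmx1 (r = 0.986), Extl1 (0.968) and Tmem175 (0.967). These moved far less, Tmx1 having 564 and 549 normalized counts in WT and 777 and 791 in Ezh2 KO. For Nxf7 they were Tmem18 (0.992), Lpl (0.979) and Tbc1d5 (0.974). Lpl, the gene of lipoprotein lipase, took the same steps, with 224 and 182 normalized counts in WT, 360 and 314 in Ezh2 Y726D, 507 and 554 in Ezh2 KO and 886 and 910 in Ezh1/2 dKO. For Maml2 they were Nsmce4a (0.968), Zfand5 (0.968) and Aard (0.958), all with smaller differences. For Gm13119 they were Gm12794 (0.994), Zscan4e (0.986) and Tmem92 (0.983), and for Gm10696 Dcdc2c (0.991), Gm2016 (0.990) and D17Ertd648e (0.987). Zscan4e, Tmem92 and Gm2016 are on the list of genes of 2-cell-like ESCs. Among the 5 genes themselves, r was 0.924 between Gm13119 and Gm10696, 0.867 between Hmcn1 and Nxf7, and 0.642 or less for every other pair.

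Cells resembling the embryo at the 2-cell stage arise at low frequency in ESC cultures and express Zscan4 genes, MERVL repeats and many multicopy genes. Of 38 such genes listed, 24 were in the table and 23 tested. This list and the gene lists that follow were chosen with earlier results of these data known. Some of their genes are copies between which reads may be shared. Their shares of calls are therefore descriptions of the listed genes. Between Ezh2 Y726D and Ezh1/2 dKO, 16 were called lower in Ezh2 Y726D and 0 higher (69.6%, beside 1.68% of all genes), with a median log2 difference of -3.09 beside -0.016 over all genes. The largest differences among those called were of Usp17la (-3.67 ± 0.52, limma adjusted p = 0.0163), Usp17le (-3.65 ± 0.62, limma adjusted p = 0.0324), Usp17lc (-3.51 ± 0.69, limma adjusted p = 0.0612) and Zscan4e (-3.46 ± 0.63, limma adjusted p = 0.0453). In Ezh1/2 dKO against WT none was called, although all 23 had a positive difference and their median was 1.09. Against WT, 7 were called lower in Ezh2 Y726D with a median of -2.04. In the contrast of the choice, Ezh2 KO against WT, 14 were called lower with a median of -4.05, and nothing is read from that count. Summed over the 24 genes, the level was 3462 and 1391 normalized counts in the WT libraries, 109 to 128 in Ezh2 KO, 3603 to 5243 in Ezh1/2 dKO and 390 to 756 in Ezh2 Y726D. Gm13119 and Gm10696 followed the same order, including the higher value in WT replicate 1, and the part of 2-cell-like cells in their levels was not tested.

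Relatives of Gm13119 were counted from a list of 35 PRAME family genes, 17 in the table and 10 tested. In Ezh2 Y726D against Ezh1/2 dKO 5 were called lower and 0 higher (50%, beside 1.68% of all genes), with a median of -3.53 over the 10. The largest differences among those called were of Pramel7 (-4.38 ± 0.91, limma adjusted p = 0.0730), Gm13078 (-4.19 ± 0.73, limma adjusted p = 0.0356) and BC080695 (-4.16 ± 0.60, limma adjusted p = 0.0178). Against WT, 4 were called lower in Ezh2 Y726D (40%, beside 2.72%), Gm13128 among them (-4.00 ± 0.77, limma adjusted p = 0.0453). In Ezh1/2 dKO 1 was called (10%, beside 4.02%), Pramef8, which rose by 1.26 ± 0.22 (limma adjusted p = 0.0286). In Ezh2 KO, as a description, BC080695 was lower than in WT by a log2 difference of -4.10 ± 0.60 and the median over the 10 was -3.31. The neighbor Gm13128 had 45.4 and 23.1 normalized counts in WT, 3.14 and 1.94 in Ezh2 KO, 24.7 and 14.2 in Ezh1/2 dKO and 0 and 3.36 in Ezh2 Y726D, while Gm13125 had at most 0.89.

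Of 15 TDPOZ family genes, 7 were in the table and 5 tested beside Gm10696. Tdpoz3, the neighbor on the side of lower coordinates, was the one called (20% of the 5, beside 1.68% and 2.72% of all genes). It was lower in Ezh2 Y726D than in Ezh1/2 dKO (-3.71 ± 0.53, limma adjusted p = 0.0174) and than in WT (-3.36 ± 0.53, limma adjusted p = 0.0230). In Ezh1/2 dKO against WT 0 of the 5 were called, beside 4.02% of all genes. As a description, Ezh2 KO minus WT was -3.51 ± 0.53. Its normalized counts were 66.7 and 29.9 in WT, 3.14 and 2.90 in Ezh2 KO, 46.2 and 71.0 in Ezh1/2 dKO and 3.57 and 3.36 in Ezh2 Y726D. The thioesterase gene Them4 lay nearer, on the other side of Gm10696 at 131896 bases. Them4 had 40.1 to 80.0 over the 8 libraries and was called in none of the tested comparisons.

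**Figure D3:**
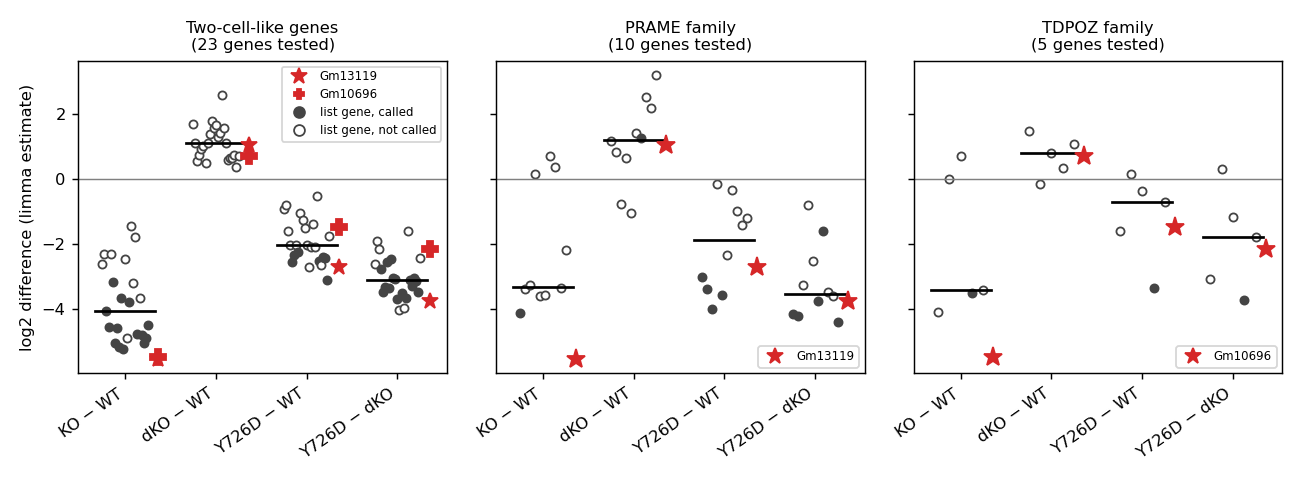
Limma log2 differences (vertical axis) of tested 2-cell-like (23), PRAME family (10) and TDPOZ family (5) genes in each comparison, with the list median as a bar, filled points for called genes, and Gm13119 and Gm10696 as red symbols. Points fall below 0 for the 2-cell-like list in all but Ezh1/2 dKO against WT, where the median is 1.09.

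Of 36 Notch pathway genes besides Maml2, 31 were tested. In Ezh1/2 dKO 2 were called (6.45%, beside 4.02% of all genes), the Notch target Hey1 (1.98 ± 0.47, limma adjusted p = 0.0653) and the glycosyltransferase gene Mfng (1.85 ± 0.44, limma adjusted p = 0.0624), and both also rose in Ezh2 Y726D (6.45%, beside 2.72%), by 2.15 ± 0.47 (limma adjusted p = 0.0625) and 2.30 ± 0.44 (limma adjusted p = 0.0415). None was called in Ezh2 KO or between Ezh2 Y726D and Ezh1/2 dKO. Maml1, a paralog of Maml2 named after its values were seen, had differences between 0.03 and 0.22 from WT in the mutants. Of 24 mRNA export genes, all tested, 1 was called (4.17% in Ezh1/2 dKO, beside 4.02%), Nxt2, an export cofactor, higher in Ezh1/2 dKO (1.13 ± 0.23, limma adjusted p = 0.0391). Nxf1 had differences from WT of -0.31 in Ezh1/2 dKO, -0.18 in Ezh2 KO and 0.00 in Ezh2 Y726D.

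Of 24 fibulin and basement membrane genes tested besides Hmcn1, 0 were called in Ezh2 KO, 4 higher in Ezh1/2 dKO (16.7%, beside 4.02% of all genes), and 3 higher and 2 lower in Ezh2 Y726D against WT (20.8%, beside 2.72%). The collagen IV genes rose together, Col4a1 by 2.81 ± 0.36 in Ezh1/2 dKO (limma adjusted p = 0.00942) and 2.91 ± 0.36 in Ezh2 Y726D (limma adjusted p = 0.0102), Col4a2 by 2.47 ± 0.33 (limma adjusted p = 0.0114) and 2.62 ± 0.33 (limma adjusted p = 0.0113). Fbln5, another fibulin, was the one gene of the list called between Ezh2 Y726D and Ezh1/2 dKO (-3.58 ± 0.41, limma adjusted p = 0.00718), and it fell in Ezh2 Y726D against WT by 2.32 on the log2 scale (SE 0.41, limma adjusted p = 0.0327). Frem2, the gene of a basement membrane protein, was lower there (-2.60 ± 0.48, limma adjusted p = 0.0367). The neighbors of Hmcn1 were not called. Prg4, 96359 bases away, had 2.09 to 11.5 normalized counts over the 8 libraries, and Ivns1abp, 351063 bases away, differed from WT by -0.01 in Ezh2 KO and -0.02 in Ezh1/2 dKO. Mtmr2, 39022 bases beyond Maml2, differed from WT by -0.26 in Ezh1/2 dKO, -0.14 in Ezh2 Y726D and -0.10 in Ezh2 KO, none of which was called. The nearest gene of the table on the other side of Maml2, Gm16833, lay 4163551 bases away with at most 6.71 normalized counts. The genes flanking Nxf7, Prame and Pramel3, had at most 2.47.

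None of the 5 promoters carried a PRC2 peak in any line. A promoter was taken as any annotated start ± 5 kb, and a peak as present with 1 base of overlap. The share of all matched genes of the table (17424, 96.5% of it) with such a peak is given beside each count. For SUZ12 0 of 5 genes had a peak in WT (17.1% of genes), Ezh2 Y726D (12.1%), Ezh2 R685C (9.79%), Ezh2 KO (4.86%) or Ezh1/2 dKO (1.17%). For H3K27me3 0 of 5 had one in Ezh2 R685C (28.0%), WT (22.0%), Ezh2 KO (17.0%), Ezh2 Y726D (1.38%) or Ezh1/2 dKO (0.115%). For HA, 0 of 5 had one in untagged Ezh1/2 dKO (3.63%) or with HA-EZH1 (13.1%). The listed peaks of these targets had a -log10 p of at least 10 where a p was given, so weaker signal at the promoters is not seen in the lists. Away from the promoter, Hmcn1 held 2 H3K27me3 peaks in Ezh2 Y726D alone. They lay 339684 to 341447 bases inside the gene, with -log10 p of 20.8 and 10.1. The paper reports that Ezh2 Y726D cells lost H3K27me3 at Polycomb sites throughout the genome. The Ezh2 Y726D list still held 3862 H3K27me3 peaks, beside 16754 in WT and 53 in Ezh1/2 dKO. The peaks inside Hmcn1 are therefore not read as a gain of H3K27me3, and their origin was not tested.

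The broad H3K27me2 and H3K27me1 lists were called at -log10 p from 1 and cover most genes. H3K27me2 regions lay at 4 of the 5 promoters in Ezh2 Y726D (87.5% of genes), 4 in Ezh1/2 dKO (86.2%), 3 in WT (77.1%) and 3 in Ezh2 KO (50.9%). H3K27me1 regions lay at 5 in WT (74.8%), 3 in Ezh1/2 dKO (66.1%), 3 in Ezh2 KO (57.0%) and 2 in Ezh2 Y726D (46.1%). Within each mark, lists that took in more genes of the table never took in fewer of the 5. The highest -log10 p among them was 4.21, an H3K27me1 region before Maml2 in WT, and next 2.99, an H3K27me1 region before Gm13119 in WT. No H3K27me1 region was listed at that promoter in the mutants, while H3K27me2 regions were listed there in Ezh1/2 dKO (2.09) and Ezh2 Y726D (1.18). Beyond the promoter of Gm13119, at the gene or within 5 kb after it, Ezh2 KO had 1 H3K27me1 region at 1.16. H3K27me2 at the start of Hmcn1 had its highest -log10 p in Ezh2 KO, at 2.92. Each -log10 p comes from 1 library, whose depth is not given here. Here and below, its order between lines is therefore not read as an order of signal. In Ezh1/2 dKO, which holds neither enzyme, the regions listed at the promoters reached 2.11 for H3K27me2. The paper reports that all H3K27 methylation was lost in Ezh2 Y726D cells and in cells without either enzyme. The H3K27me2 lists still held 478485 regions in Ezh1/2 dKO and 475687 in Ezh2 Y726D, beside 270131 in WT. The H3K27me1 lists held 265774 and 163771, beside 184901 in WT. In these mutants a listed region is therefore not read as methylation present, and the part of background was not tested.

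**Figure D4:**
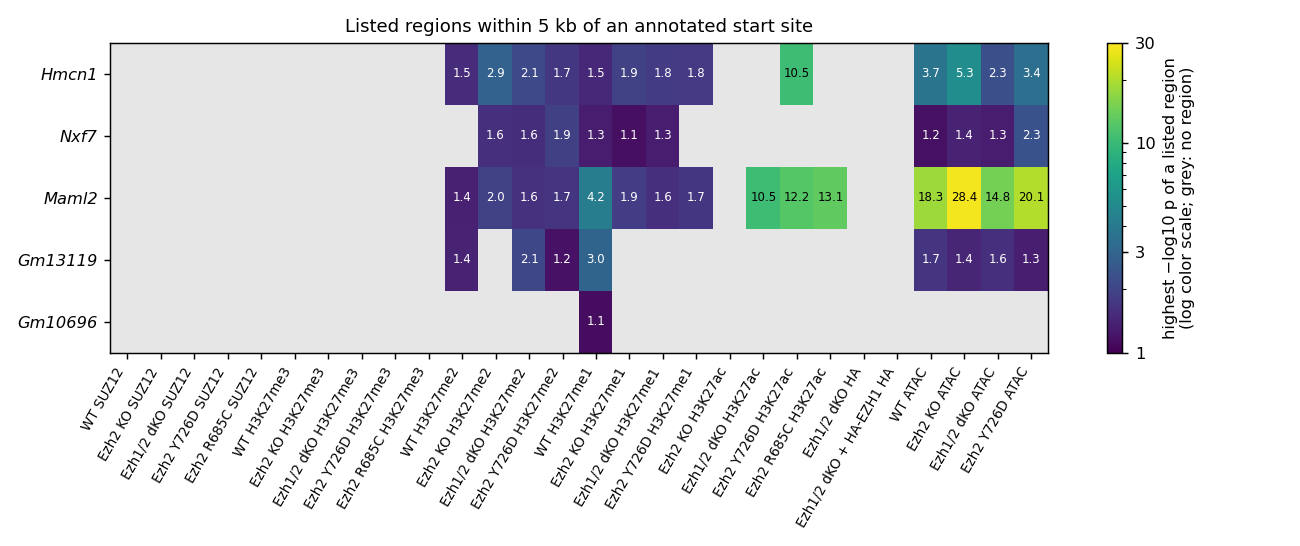
The highest -log10 p (color, logarithmic scale) of any listed region within 5 kb of a start of each gene (rows) in each of the 28 lists (columns), with grey for no region. SUZ12, H3K27me3 and HA columns are empty, H3K27ac appears at Hmcn1 in Ezh2 Y726D and at Maml2 in the lines lacking EZH1, and ATAC is strongest at Maml2 with 28.4 in Ezh2 KO.

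H3K27ac was listed in the 4 mutant lines, and a WT list is not analysed here. It marked 0 of the 5 promoters in Ezh2 KO (48.9% of genes), 1 in Ezh1/2 dKO (37.1%), 2 in Ezh2 Y726D (60.4%) and 1 in Ezh2 R685C (59.1%). The lists differed in size, with 25483, 17618, 40829 and 41185 peaks in that order. At Hmcn1 the peak of Ezh2 Y726D ran from -7 to 319 relative to the start, over the end of the printed promoter, with a -log10 p of 10.47, where the list begins near 10. Ezh2 Y726D is the mutant in which the Hmcn1 RNA stayed at 15.2 and 11.2 normalized counts, and the lines with high Hmcn1 RNA, Ezh2 KO and Ezh1/2 dKO, had no listed H3K27ac peak there.

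At Maml2 the H3K27ac peaks lay at the internal start and further along. Within 5 kb of the internal start the highest -log10 p was 10.47 in Ezh1/2 dKO, 12.2 in Ezh2 Y726D and 13.1 in Ezh2 R685C. Deeper in the gene, Ezh2 R685C had a peak of 6070 bases, 76653 to 82722 bases from the 5′ start, with a -log10 p of 59.9, where Ezh2 KO had peaks of 11.2 and 13.1, Ezh2 Y726D had peaks of 12.2 and 12.7 and Ezh1/2 dKO none. Upstream, at -124556 to -122351 bases from the start, all 4 lines had peaks, with highest values of 11.8 in Ezh2 KO, 21.0 in Ezh1/2 dKO, 34.5 in Ezh2 Y726D and 17.0 in Ezh2 R685C. Maml2 RNA in Ezh2 R685C is not analysed here.

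**Figure D5:**
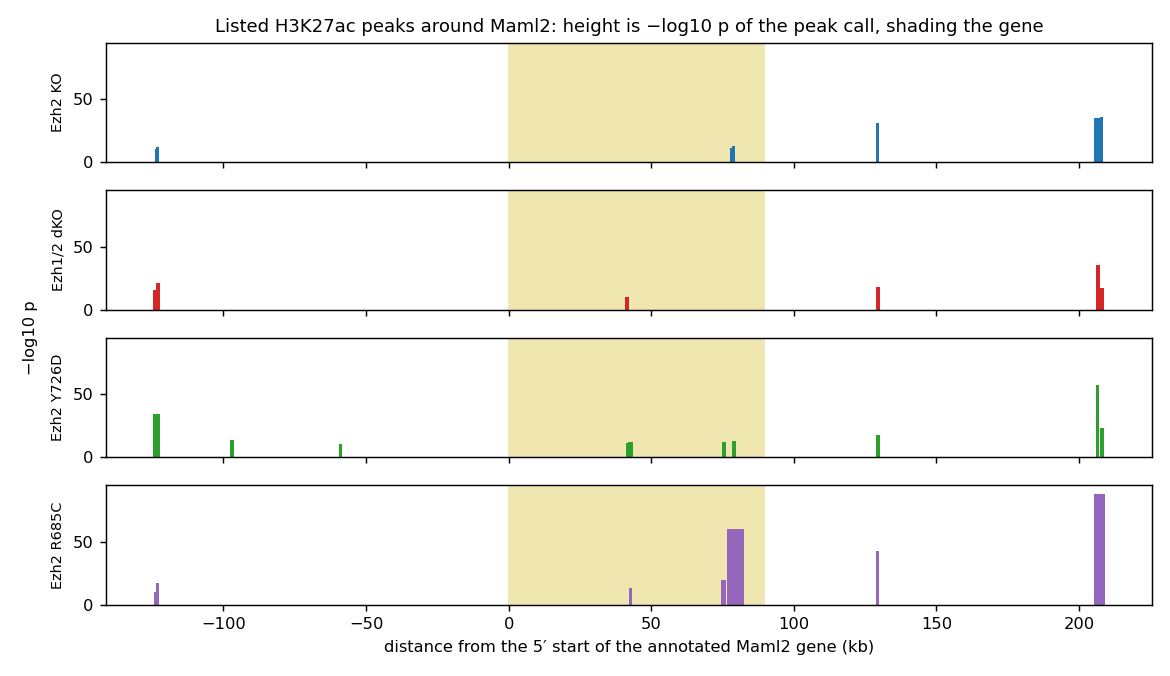
Listed H3K27ac peaks in the 4 mutant lines by distance from the 5′ start of Maml2 (horizontal axis, kb), with bar height as the -log10 p of the call and shading for the gene. Inside the gene the peak of Ezh2 R685C at 59.9 stands above those of the other lines, which reach 13.1.

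ATAC regions, which mark open chromatin, were listed from -log10 p of 1 and lay within 5 kb of a start in 99.1% of genes in Ezh2 KO, 99.0% in WT, 99.0% in Ezh1/2 dKO and 99.0% in Ezh2 Y726D. They covered 4 of the 5 promoters in each line, all but Gm10696. Across the start of Hmcn1 a region was listed in every line, with -log10 p of 5.32 in Ezh2 KO, 3.68 in WT, 3.45 in Ezh2 Y726D and 2.29 in Ezh1/2 dKO. Nxf7 reached at most 2.35 and Gm13119 at most 1.69.

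The strongest ATAC region at any of the promoters lay before Maml2 in all 4 lines, with -log10 p of 28.4 in Ezh2 KO, 20.1 in Ezh2 Y726D, 18.3 in WT and 14.8 in Ezh1/2 dKO. A region was thus listed in every line, while Maml2 RNA was high in WT alone, and the order of these values between lines is not read. The 500 bases common to the 4 lines span chr9:13422618-13423117. The 300 bases at their center are printed because their sequence bears on how reads could be placed there, with CpG in capitals.
Maml2, upstream ATAC region, chr9:13422718-13423017, plus strand: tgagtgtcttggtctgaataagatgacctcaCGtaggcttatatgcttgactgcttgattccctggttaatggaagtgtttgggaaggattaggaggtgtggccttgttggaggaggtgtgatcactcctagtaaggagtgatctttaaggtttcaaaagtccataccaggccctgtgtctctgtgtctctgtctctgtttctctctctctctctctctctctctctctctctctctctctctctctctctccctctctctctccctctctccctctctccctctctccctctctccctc

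That window held 1 CpG and an unbroken run of 102 pyrimidines (C or T). Of the stretches of 50 bases in the 500 bases, 51.2% occurred once in mm9, against 96.0% over the 10 kb around the start. Per the paper's methods, ATAC reads were paired and their alignment favored unique placements. The part of this repeat in the ATAC signal was not tested.

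Gm10696 had no listed region of any kind within 5 kb of its 5′ start, and a single H3K27me1 region of WT at -log10 p of 1.12 near its other annotated start. The authors kept uniquely placed reads, and 22.6% of the stretches around the start occur once, so the part of unplaced reads in this absence was not tested.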

How the data were processed

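RNA was measured by SMART-seq in 8 libraries, and chromatin by ChIP-seq and ATAC-seq in 28 lists. Per the study's methods, the authors aligned RNA reads to mm9 with TopHat, removed duplicates, counted reads on RefSeq genes without strand with HTSeq and normalized by DESeq2 size factors, and the deposited signal is 1 normalized count per gene and library. Dividing by the value of 1 read gave whole reads for 100% of values (tolerance 0.001 of a read). ChIP reads were aligned with Bowtie, keeping unique placements, and regions called with MACS2; the deposited lists give positions and, except for HA, the −log10 p of each region. Tables of the authors' own fold changes and p-values, and second copies of the RNA tables, were not used.

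limma 3.58.1 (R 4.3.3) was fitted with trend to log2(normalized count + 1) of all 8 libraries, for genes with a mean of at least 5, with Benjamini-Hochberg adjustment. Calls required a log2 difference of 1 or more in either direction and an adjusted p below 0.1. The code was tested on simulated data. The genes and the gene lists were chosen with earlier results of these data known. Genes named were the 5, Ezh1 and Ezh2, the 3 most alike by r, neighbors, and up to 4 called genes per list with the largest difference. Counting intervals are exact and cover counting error only. Alternatives were other pseudocounts, filters, scalings, edgeR 4.0.16 and DESeq2 1.42.0 on recovered reads, a replicate block, leaving out each library, and other promoter windows. Genes were matched to GENCODE (mm9) by symbol or RefSeq synonym.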

Additional observations from a re-analysis of the deposited data

Results flagged for a closer look

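The effect of losing EZH1 and EZH2 against WT and the effect of the inactive EZH2 Y726D against WT differed for 3 of the 5 genes, by the test of the difference itself (limma, Ezh2 Y726D against Ezh1/2 dKO, 2 libraries against 2). Hmcn1 was lower in Ezh2 Y726D by a log2 difference of -3.71 (adjusted p = 0.00487), Nxf7 by -3.42 (adjusted p = 0.00776) and Gm13119 by -3.75 (adjusted p = 0.0215). In each, both Ezh2 Y726D libraries lay below both Ezh1/2 dKO libraries, and the share of all genes with this order was not counted. Over the table, this comparison called 1.68% of genes, 207 of the 233 lower in Ezh2 Y726D. The spread in this fit came from all 8 libraries, and with the 4 compared alone the adjusted p was 0.0428, 0.0546 and 0.0428. The number of clones behind a line is not given in the sources used here. Groups of 2 libraries were too small to look for single outlying libraries.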

How the results depend on the processing

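The tested differences of the 5 genes kept their direction in all but 1 of 150 values under other settings and all but 3 of 120 with 1 library left out. The exceptions were near 0: Hmcn1 in Ezh2 Y726D minus WT, from 0.06 to -0.13 under quantile normalization and between -0.16 and 0.28 with 1 library left out, and Gm10696 in Ezh1/2 dKO minus WT, between -0.34 and 1.74 with 1 left out. The cause was not tested. Of the 5 genes, 3 were called in Ezh1/2 dKO against WT (0 to 3 with 1 library left out), 2 in Ezh2 Y726D against WT (1 with a pseudocount of 0.5, 1 in a fit without the lines not compared, 1 to 2 with 1 left out), and 3 in Ezh2 Y726D against Ezh1/2 dKO (4 with DESeq2, 1 to 3 with 1 left out). Genes called over the table were 56 in Ezh2 KO against WT, 35 without a filter, 30 with edgeR, 144 with DESeq2, 34 under quantile normalization, 28 in the fit without other lines and 34 with the replicate block (6 to 135 with 1 left out). In Ezh1/2 dKO against WT 557 were called (3 to 733), 503 higher and 54 lower, and 290 higher and 129 lower under quantile normalization. In Ezh2 Y726D against WT 377 were called, 32 in the fit without other lines (156 to 546). In Ezh2 Y726D against Ezh1/2 dKO 233 were called, 150 in the fit without other lines (14 to 514), 26 higher and 207 lower, and 50 higher and 168 lower under quantile normalization. Deviations of same-numbered libraries correlated at 0.223 to 0.288 between mutants and at -0.409 to -0.0653 between WT and a mutant, so over all 4 lines the replicate numbers were not taken as pairs. The replicate block left the counts of calls among the 5 genes at 3, 2 and 3, and called 162 genes of the table in Ezh2 Y726D against Ezh1/2 dKO.

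Promoter counts changed as follows. Another window or threshold can also change the share of all genes, which is not given here for these settings. The changes are therefore not read as particular to the chosen genes. Within 1 kb, H3K27me2 in Ezh1/2 dKO fell to 2 genes, H3K27me1 in WT to 2 and in Ezh2 Y726D to 1; within 2 kb the latter were 2 and 1. With the 5′ start alone, H3K27me1 was at 1 in Ezh2 KO and 1 in Ezh2 Y726D, and H3K27ac at 0 in Ezh1/2 dKO, 1 in Ezh2 Y726D and 0 in Ezh2 R685C. At a -log10 p of at least 20, H3K27ac was at 0 in Ezh1/2 dKO, Ezh2 Y726D and Ezh2 R685C. Over the gene body, H3K27me3 in Ezh2 Y726D was at 1 and H3K27ac in Ezh2 KO at 1. With 2 libraries a line and 1 to 22 reads in the lowest groups, counts set the limit for the low levels.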
